A study of Canis lupus familiaris with 6 samples.

Results

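HOX genes encode homeodomain transcription factors that lie in 4 clusters, A, B, C and D, and carry paralogue numbers from 1 to 13. Genes of the same number in different clusters descend from a shared ancestor. Low-numbered genes are switched on first and towards the head, high-numbered genes later and towards the tail and the ends of the limbs. Cultured fibroblasts and bone cells often keep the HOX pattern of the body site they came from, so the profile is read as a record of position as well as of cell state. The proteins bind DNA together with PBX and MEIS cofactors, while trithorax complexes keep active HOX chromatin open and Polycomb complexes keep silent HOX chromatin shut.

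The HOX genes described here are all those for which a probe set carried a single gene symbol made of HOX, a cluster letter and a number, with the brightest probe set over all lines standing for each gene. They are 21 of 15115 genes, read from 30 probe sets. HOXA was represented by 7 genes, HOXB by 8, HOXC by 5 and HOXD by HOXD10 alone. A further 17 HOX genes of the RefSeq table were not analysed here, among them HOXA10, HOXA11, HOXD9, HOXD11 and HOXD13, which pattern the limb in mice, so no full HOX code can be read from these data. One further probe set, shared by HOXC6 and HOXC4, was dim in every line, between 4.26 and 5.14, and was not used.

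Expression was measured on 1 Affymetrix array for each of 6 primary lines of canine osteosarcoma, a malignant tumour of bone. UWKOS1, UWKOS3 and UWKOS7 formed tumours when transplanted into mice (tumorigenic, n = 3), and UWKOS2, UWKOS6 and UWKOS8 did not (non-tumorigenic, n = 3). All were untreated, grown with 10% serum and harvested before confluence, and the RNA came from cultured cells, not from transplants. The labels give neither the tumour site nor the age, sex or breed of any dog, so no HOX value below can be set against a known body position. There was no normal bone or other control line, and each line is a single culture arrayed once, so a p-value measures only the spread between these lines.

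Values are the deposited log2 values, in which a step of 1 is a doubling of signal, and array medians lay between 6.03 and 6.05. With no detection calls, the median of all probe sets, 6.07, served as the filter on dim signals, and a gene below it is not known to lie above background. The log2 ratio of 3′ to 5′ actin signal, a sign of RNA quality, averaged 2.10 in UWKOS6 and 1.52 in UWKOS8 against 0.39 to 0.77 in the other 4 lines. The same ratio for GAPDH was 1.00 and 1.44 against 0.64 to 0.84. The bone collagen genes COL1A1 and COL1A2 were bright in every line, at 12.28 or more. COL1A2 and SPARC, another bone matrix gene, were lower in the tumorigenic lines without overlap, by -0.93 and -0.88 (limma adjusted p = 0.0702 and 0.0757). Of 6 tested osteoblast markers 1 passed, where 4.63% of all tested genes passed as lower: OMD, a matrix protein of bone, fell by 4.53 (limma adjusted p = 0.0261). Of the 11 measured, 3 were lower and 1 higher without overlap, where the shares over all 15115 genes were 15.1% and 16%. The higher marker was IBSP, dim in every line, with a difference of 0.43 (limma adjusted p = 0.0874 without the filter). The osteoblast regulator RUNX2 lay between 5.84 and 6.52, and SPP1 read 9.76 in UWKOS1 and at most 3.30 elsewhere. Of 3 tested blood markers 0 passed in limma, with 1 at an unadjusted p under 0.05. That was CD68, at 5.71 in UWKOS3 and 7.32 in UWKOS7, with UWKOS1 between them, and 7.22 to 7.68 in the others, while PTPRC was dim, between 4.86 and 5.17. The epithelial marker EPCAM read 7.65 in UWKOS1 and was well below the filter in the other 5 lines. KRT8 and KRT18 were above it in UWKOS1 (6.49 and 7.44) and in UWKOS3 (6.64 and 6.41), and CDH1 was dim in every line, from 3.95 to 4.26. The linear signals of 8 fibroblast markers summed to 26669 to 36652 in the tumorigenic lines and 60701 to 69058 in the others. Those of 5 smooth muscle markers summed to 959 to 23154 against 41558 to 43210. Such sums follow the brightest genes. Of 7 tested fibroblast and 4 tested smooth muscle markers 0 passed in limma. In each list 2 tested markers were lower without overlap and 0 higher, where 16.6% of all tested genes were lower without overlap. PDGFRA and DES had higher means in the tumorigenic lines, by 0.78 and 0.40, and CNN1 was highest in UWKOS7, at 11.94. Of 2 tested endothelial markers 0 passed in limma, though KDR was higher in the tumorigenic lines without overlap, by 1.11 (limma adjusted p = 0.0909). PECAM1, dim in every line, was higher by 0.84 and passed without the filter (limma adjusted p = 0.0412), where 4.13% of all 15115 genes passed as higher. CDH5, VWF and TEK differed by -0.04, 0.05 and -0.25. The part of these marker differences in the HOX results was not tested. In bulk RNA, fewer cells of a type and less RNA per cell cannot be told apart.

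The 21 HOX genes fell into a quiet majority and a few that varied widely. Of the 21, 12 spanned less than 1 on the log2 scale over the 6 lines, and the median standard deviation over lines was 0.26, close to the 0.28 of all 15115 genes. The range reached 3 or more in HOXD10, which spanned 5.06, and HOXA5, which spanned 4.65. That is 2 of 21 genes, where 4.15% of all genes had such a range. HOXB7, HOXC8, HOXB13 and HOXA7 followed, with ranges of 2.65, 2.55, 2.25 and 2.11.

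**Figure D1:**
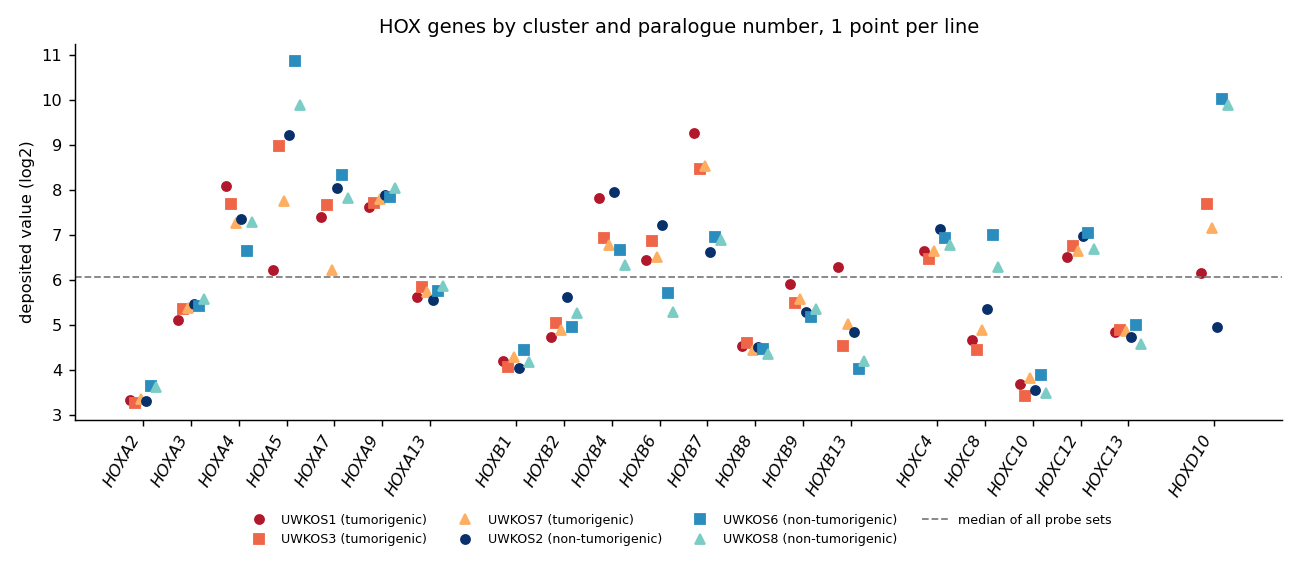
Deposited log2 value of each HOX gene in each of the 6 lines, ordered by cluster and paralogue number, with 1 point per line and the dashed line at the median of all probe sets, 6.07. HOXA5 and HOXD10 spread most between lines, HOXB7 separates the 2 labels with the tumorigenic lines on top, and 9 of the 11 genes whose mean lies below the line span less than 1.

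Paralogues 1 to 3, which pattern the hindbrain and pharyngeal region in mice, were dim in all lines. HOXB1 ranged from 4.04 to 4.44, HOXB2 from 4.74 to 5.61, HOXA2 from 3.28 to 3.64 and HOXA3 from 5.12 to 5.57. Every one of these values lay below the filter. The highest-numbered genes were also mostly dim: HOXA13, a gene of digits and the genital tract, lay between 5.57 and 5.86, HOXC13, a hair follicle gene, between 4.57 and 5.01, and HOXC10 between 3.43 and 3.89. HOXB8 was dim and even, from 4.37 to 4.60. Signal above the filter was concentrated in the middle of the clusters: of the 10 genes whose mean passed it, 7 carried paralogue numbers 4 to 7, and the others were HOXA9, HOXC12 and HOXD10. Signals of different probe sets depend on the probes as well as on RNA, so these levels describe each gene and do not rank genes against each other.

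HOXB7 was higher in the tumorigenic lines. It read 9.27 in UWKOS1, 8.46 in UWKOS3 and 8.52 in UWKOS7, against 6.61 in UWKOS2, 6.95 in UWKOS6 and 6.89 in UWKOS8. Every tumorigenic line lay well above every non-tumorigenic line. The means were 8.75 ± 0.45 (SD, n = 3) and 6.82 ± 0.18 (SD, n = 3), a 3.81-fold difference of 1.93 on the log2 scale (SE 0.26, 95% interval 1.31 to 2.55, limma adjusted p = 0.0159). HOXB7 is expressed in the trunk and limb of the embryo and is often overexpressed in human cancers. A second, dimmer probe set ran the same way in all lines, from 5.90 to 6.33 in the tumorigenic lines and from 5.42 to 5.46 in the others, a difference of 0.61 that did not pass without the filter (limma adjusted p = 0.0763).

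Of the 10 HOX genes above the filter, 1 passed the test, HOXB7, where 12.1% of all 9145 tested genes passed; that share is near the background and says nothing particular about HOX genes as a group. By direction, 7.5% of all tested genes were higher and 4.63% lower. Without the filter HOXB7 was again the sole call among the 21 (limma adjusted p = 0.0186), where 6.62% of all genes passed, 4.13% higher and 2.49% lower. Without UWKOS6 its difference was 1.99 and did not pass (limma adjusted p = 0.0714), in a fit where 12 of 9145 genes passed, or 0.131%. A covariate for the GAPDH end ratio left it at 1.99 (limma adjusted p = 0.122), with 0.0984% of genes passing. Dropping UWKOS6 together with UWKOS8 gave 2.13 (limma adjusted p = 0.292), with 0.0109% passing.

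None of the genes beside HOXB7 in its cluster passed, and HOXB8 and HOXB9 were too dim to show whether they shared the step. HOXB6 read 6.45, 6.87 and 6.52 in UWKOS1, UWKOS3 and UWKOS7 and 7.22, 5.71 and 5.30 in UWKOS2, UWKOS6 and UWKOS8, so the non-tumorigenic lines held both the highest and the lowest value. Its difference was 0.54 (95% interval -0.64 to 1.72, limma adjusted p = 0.489). HOXB8, on the other side, differed by 0.08 (95% interval -0.20 to 0.36) at a signal below the filter. HOXB9, also dim, read 5.91, 5.48 and 5.58 in UWKOS1, UWKOS3 and UWKOS7 and 5.28, 5.19 and 5.37 in UWKOS2, UWKOS6 and UWKOS8. Its groups did not overlap, but its difference of 0.38 did not pass without the filter (limma adjusted p = 0.197).

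HOXB4, which expands blood stem cells when overexpressed in mice, followed a line pattern of its own. It was highest in UWKOS2 (7.96) and UWKOS1 (7.82), which carry opposite labels, and between 6.32 and 6.92 in the other 4 lines. UWKOS2 was thus the highest line for HOXB2, HOXB4 and HOXB6 and the lowest for HOXB7. HOXB13, a gene of the tail end of the body and of the prostate, crossed the filter only in UWKOS1, at 6.28, and lay between 4.02 and 5.03 in the others. UWKOS1 is also the line with EPCAM signal; the part of that in the HOXB13 value was not tested. Over the 8 HOXB genes, 6 had higher means in the tumorigenic lines and 2 lower, and none but HOXB7 passed.

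HOXA5 ran opposite to HOXB7. It read 6.22 in UWKOS1, 8.98 in UWKOS3 and 7.76 in UWKOS7, against 9.21 in UWKOS2, 10.86 in UWKOS6 and 9.90 in UWKOS8. The groups did not overlap, though UWKOS3 came close to UWKOS2. The means were 7.65 ± 1.39 (SD, n = 3) and 9.99 ± 0.83 (SD, n = 3), a difference of -2.34 (95% interval -4.14 to -0.54). It did not pass (limma adjusted p = 0.0886). UWKOS1 and UWKOS3, both tumorigenic, differed by more than the group means did. In mice HOXA5 patterns the lung and the neck and upper chest vertebrae.

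HOXA7, the paralogue of HOXB7 in cluster A, also lay lower in the tumorigenic lines, at 7.41, 7.67 and 6.21 in UWKOS1, UWKOS3 and UWKOS7 against 8.03, 8.33 and 7.83 in UWKOS2, UWKOS6 and UWKOS8. The groups did not overlap. The difference of -0.96 did not pass (SE 0.39, limma adjusted p = 0.151), and without UWKOS7 it was -0.52 (limma adjusted p = 0.155). Taken line by line, the signal of HOXB7 minus that of HOXA7 was 1.86, 0.79 and 2.31 in UWKOS1, UWKOS3 and UWKOS7 and -1.42, -1.38 and -0.93 in UWKOS2, UWKOS6 and UWKOS8. This contrast was formed after the values were seen, from genes that each separated the labels, and is a description with no test.

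The rest of cluster A moved little. HOXA9, which supports blood stem cells and is a leukaemia gene in humans, read 7.63, 7.72 and 7.79 in UWKOS1, UWKOS3 and UWKOS7 and 7.89, 7.84 and 8.03 in UWKOS2, UWKOS6 and UWKOS8. Its difference of -0.21 (limma adjusted p = 0.361) was opposed by another of its 3 probe sets, at 0.20. The dim HOXA3 also had groups that did not overlap, from 5.12 to 5.38 against 5.43 to 5.57, with a difference of -0.21 (limma adjusted p = 0.379 over all 15115 genes). HOXA4 went the other way, from 7.27 to 8.09 in the tumorigenic lines and from 6.65 to 7.35 in the others, with overlap and a difference of 0.59 (limma adjusted p = 0.213).

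In cluster C the gene that varied was HOXC8, a gene of the chest vertebrae in mice. It read 4.67 in UWKOS1, 4.45 in UWKOS3 and 4.89 in UWKOS7, against 5.35 in UWKOS2, 6.99 in UWKOS6 and 6.29 in UWKOS8. Only UWKOS6 and UWKOS8 lay above the filter, and UWKOS2 lay nearer to the tumorigenic lines than to them. The difference of -1.54 (95% interval -2.54 to -0.55) did not pass (limma adjusted p = 0.082 without the filter), although it did without UWKOS2, at -1.98 (limma adjusted p = 0.0436). The gene identifier behind this probe set is not in the RefSeq table, so its symbol rests on the array annotation alone. The other HOXC8 probe set, with a current identifier, was dim and nearly flat, from 4.38 to 4.72, with a difference of -0.18.

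HOXC4 read 6.64, 6.46 and 6.64 in UWKOS1, UWKOS3 and UWKOS7 and 7.12, 6.94 and 6.78 in UWKOS2, UWKOS6 and UWKOS8, a small step of -0.37 without overlap (limma adjusted p = 0.177). HOXC12, a gene expressed in hair follicles, differed by -0.26 with overlap (limma adjusted p = 0.33). These values complete cluster C, where 4 of 5 means were lower in the tumorigenic lines and 0 passed in limma.

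HOXD10, which patterns the limb and the nerve supply of the hind limb in mice, split the non-tumorigenic lines. It read 10.01 in UWKOS6 and 9.90 in UWKOS8 but 4.95 in UWKOS2, the lowest of all lines and below the filter. The tumorigenic lines lay between, at 6.17 in UWKOS1, 7.70 in UWKOS3 and 7.16 in UWKOS7. The labels therefore overlapped fully, with means of 7.01 ± 0.78 (SD, n = 3) and 8.29 ± 2.89 (SD, n = 3) and a difference of -1.28 (95% interval -4.57 to 2.02, limma adjusted p = 0.559).

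The call for HOXD10 turned on which lines were included. Without UWKOS2 the difference was -2.95 and passed (limma adjusted p = 0.0416), where 5.23% of all tested genes passed, while without UWKOS6 and UWKOS8 it was 2.06 in the other direction (limma adjusted p = 0.376). A second probe set of HOXD10 also placed UWKOS6 and UWKOS8 highest, but in the reverse order, at 6.82 and 7.96. It placed UWKOS3 close behind at 6.60 and UWKOS1 and UWKOS2 together at 5.44 and 5.49. Its difference was -0.71 (limma adjusted p = 0.486). The brighter probe set again has a gene identifier that is not in the RefSeq table. The actin and GAPDH end ratios were also highest in UWKOS6 and UWKOS8; with the GAPDH ratio as a covariate HOXC8 differed by -1.16 (limma adjusted p = 0.439) and HOXD10 by 0.78 (limma adjusted p = 0.838). Without UWKOS6 and UWKOS8 the difference of HOXC8 was -0.68 (limma adjusted p = 0.509).

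**Figure D2:**
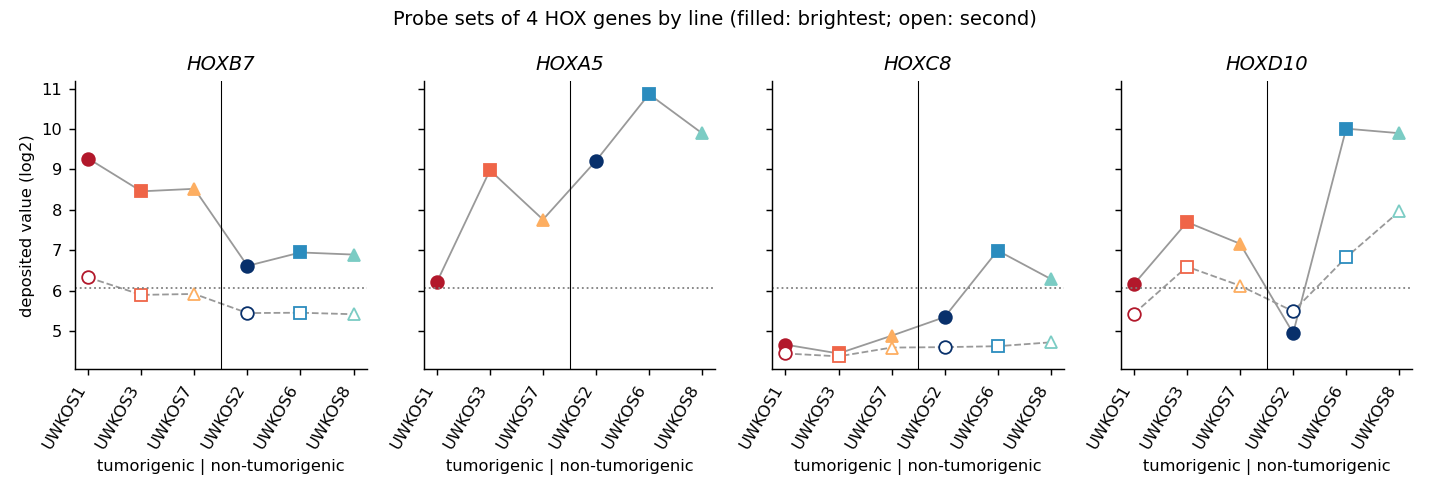
Log2 value by line for the probe sets of HOXB7, HOXA5, HOXC8 and HOXD10, with the brightest probe set filled and the second open, tumorigenic lines left of the vertical line and the dotted line at the filter of 6.07. Both HOXB7 probe sets step down at the label boundary, while HOXD10 is high in UWKOS6 and UWKOS8 and lowest in UWKOS2 on its brightest probe set.

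Of the 21 HOX genes, 8 had groups that did not overlap, where 31.1% of all 15115 genes did. HOXB7 and HOXB9 were the higher ones, beside 16% of all genes, and HOXA3, HOXA5, HOXA7, HOXA9, HOXC4 and HOXC8 were lower, beside 15.1%. Among the 10 above the filter 5 did not overlap, 1 higher and 4 lower, where the share over 9145 genes was 38.4%, with 21.7% higher and 16.6% lower. By their brightest probe sets, the non-overlapping genes of cluster B were thus higher and those of clusters A and C lower in the tumorigenic lines; a dimmer HOXA9 probe set above the filter separated the labels the other way, by 0.20. The median difference was -0.21 over the 7 HOXA genes, 0.28 over the 8 HOXB genes and -0.26 over the 5 HOXC genes, beside -0.03 over all genes without the filter. Centring on the hybridization controls, which moves every difference up by 0.17, made these -0.04, 0.46 and -0.09. Among the 3 HOXB genes above the filter the median of 0.54 turned to -0.34 with the GAPDH end ratio as a covariate and to -0.61 without UWKOS6 and UWKOS8. The contrast between clusters was not tested, since genes are not replicates.

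By paralogue number, all 4 genes numbered 1 to 3 had lower means in the tumorigenic lines, by -0.03 to -0.38, all below the filter and none past the test. The median difference was -0.20 over these 4, 0.08 over the 9 numbered 4 to 8 and -0.002 over the 8 numbered 9 to 13. Within a number the clusters could oppose each other: HOXA4 and HOXB4 had positive differences and HOXC4 a negative one, HOXA7 and HOXB7 differed in sign, and so did HOXA9 and HOXB9. All 3 genes numbered 13 had slightly higher means in the tumorigenic lines, of which HOXB13, at 0.93 (95% interval -0.23 to 2.08), was the largest and rested on UWKOS1.

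**Figure D3:**
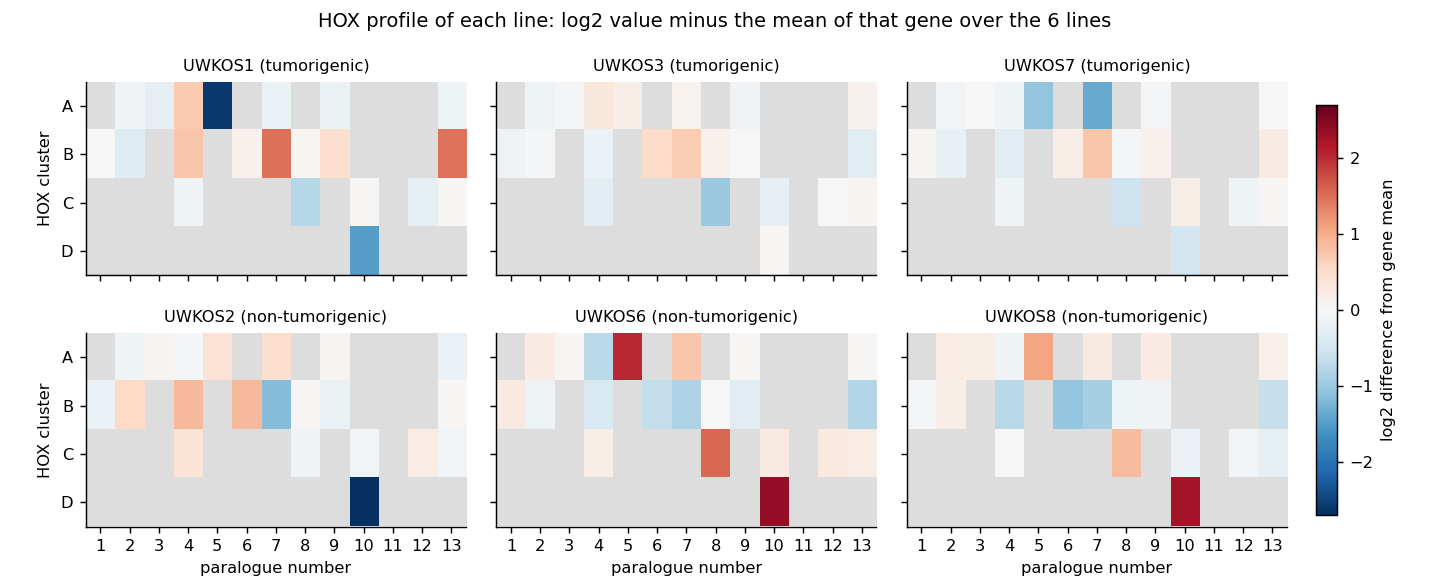
HOX profile of each line on a grid of cluster (rows) and paralogue number (columns), coloured by the log2 value minus the mean of that gene over the 6 lines, with grey where no gene was analysed here. By the brightest probe sets, UWKOS6 and UWKOS8 share high HOXA5, HOXC8 and HOXD10, and UWKOS2 stands out by low HOXD10. UWKOS1 stands out by low HOXA5 and high HOXB7 and HOXB13. On the other HOXD10 probe set UWKOS1 was as low as UWKOS2, at 5.44 and 5.49.

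Each line could be described by a few departures from the gene means. UWKOS1 lay 2.61 below the mean for HOXA5 and 1.48 below for HOXD10, and 1.48 above for HOXB7 and 1.46 above for HOXB13. UWKOS3 stayed within 1 of the mean for every gene, and UWKOS7 departed most in HOXA7, at -1.37. UWKOS2 departed most in HOXD10, at -2.70, followed by HOXB7 at -1.17. That HOXD10 value holds for the brightest probe set. On the HOXD10 probe set with a current identifier UWKOS1 was as low as UWKOS2, at 5.44 and 5.49. UWKOS6 and UWKOS8 had the same profile in outline, with HOXD10 at 2.36 and 2.25, HOXA5 at 2.04 and 1.07 and HOXC8 at 1.55 and 0.85.

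UWKOS2 stood elsewhere by its HOX genes than by the whole array. The root mean square (RMS) of the log2 differences between UWKOS2 and UWKOS6 was 1.33 over the 21 HOX genes and 0.53 over all 15115 genes. Between UWKOS2 and UWKOS8 the values were 1.26 and 0.57. On the whole array UWKOS2 was thus close to both, whereas over the HOX genes it was nearer to each tumorigenic line, at 0.83 for UWKOS3, 0.91 for UWKOS7 and 1.06 for UWKOS1, than to either. Without HOXD10 the pairs of UWKOS2 with UWKOS6 and UWKOS8 came to 0.77 and 0.67 over 20 genes, while those with UWKOS3, UWKOS7 and UWKOS1 came to 0.58, 0.79 and 1.05. Without that gene UWKOS2 was thus nearer to UWKOS6 and UWKOS8 than to UWKOS7 or UWKOS1, and UWKOS3 alone of the tumorigenic lines stayed nearer. The most alike pair was UWKOS6 and UWKOS8 on both measures, at 0.39 and 0.45, and the least alike pair was UWKOS1 and UWKOS6, at 1.67 and 0.98. These are descriptions of single arrays, and the RMS over 21 genes leans on the few that vary.

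**Figure D4:**
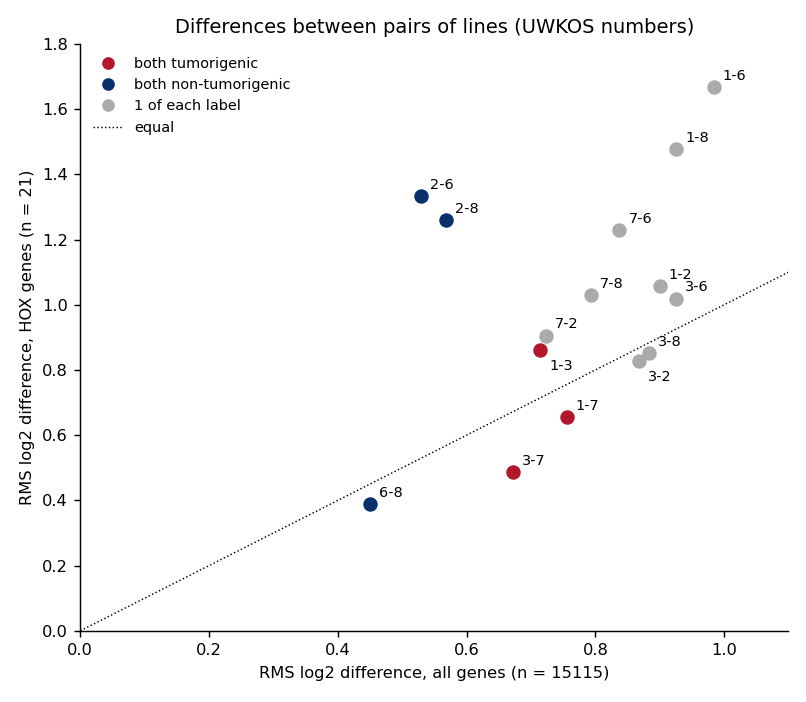
RMS log2 difference between each of the 15 pairs of lines over the 21 HOX genes (vertical) against that over all 15115 genes (horizontal), with pairs named by the numbers of their UWKOS lines and the dotted line marking equal values. The pairs of UWKOS2 with UWKOS6 and UWKOS8 lie far above the line, at 1.33 and 1.26 over the HOX genes against 0.53 and 0.57 over all genes.

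The clusters held 1 call among 10 tested genes, and their flanks held more calls among more tested genes. Of the 5 nearest protein-coding genes on each side of each cluster in the RefSeq map, 35 of 40 were measured and 30 lay above the filter, of which 8 passed, or 26.7%, beside 12.1% of all genes. They were NFE2L3 (3.08, limma adjusted p = 0.0365) and JAZF1 (-2.01, limma adjusted p = 0.0423) around HOXA, and NFE2L1 (-1.91, limma adjusted p = 0.0197) and COPZ2 (-2.69, limma adjusted p = 0.024) around HOXB. Around HOXC they were CBX5, which binds silent chromatin, (0.63, limma adjusted p = 0.0423) and the locus LOC607149 (-0.89, limma adjusted p = 0.0293), and around HOXD HNRNPA3 (1.97, limma adjusted p = 0.0116) and AGPS (1.45, limma adjusted p = 0.0144). Of the genes directly next to a cluster, 7 were measured and 0 passed in limma. SKAP2 and EVX1 beside HOXA differed by 0.20 and -0.13, SKAP1 and TTLL6 beside HOXB by 0.07 and -0.20, SMUG1 beside HOXC by 0.01, and EVX2 and MTX2 beside HOXD by -0.05 and 0.48. MTX2 came nearest to a call, with groups that did not overlap (limma adjusted p = 0.0967).

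**Figure D5:**
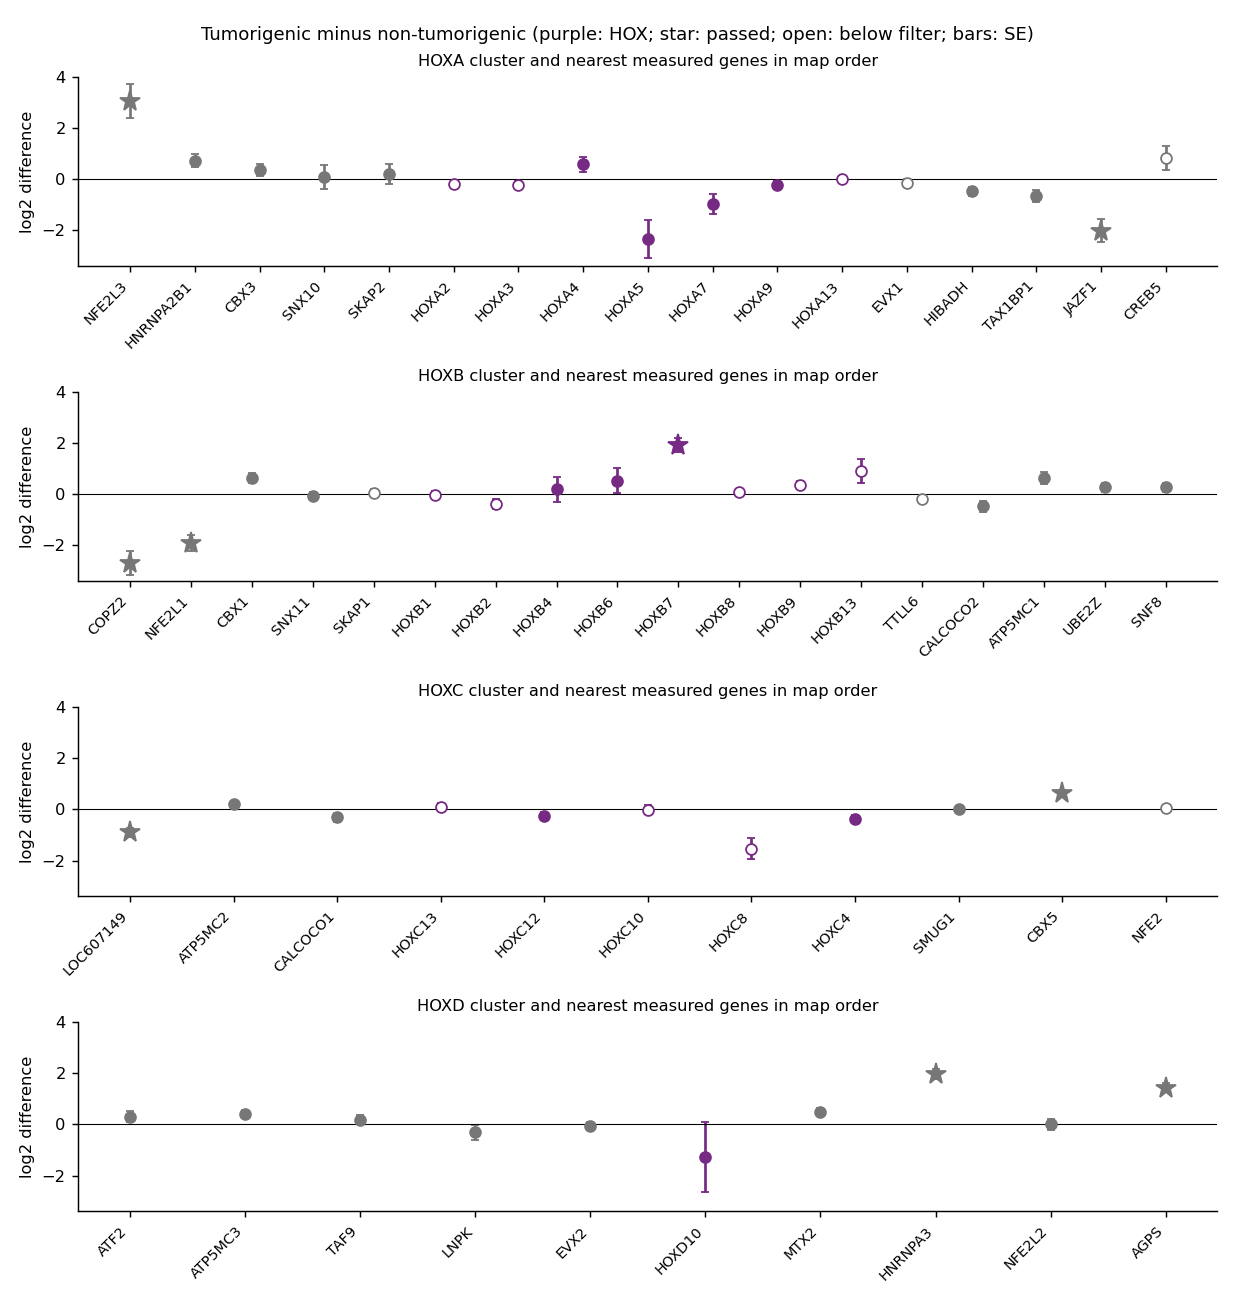
Log2 difference, tumorigenic minus non-tumorigenic, with its SE for the HOX genes (purple) and the nearest measured genes on either side (grey), from HOXA at the top to HOXD at the bottom and in map order, not to scale. Stars mark genes that passed the test and open symbols genes below the filter: HOXB7 is the sole purple star, and the stars of the flanks stand away from the cluster ends.

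Among the HOX cofactors of the TALE class, 9 of 11 listed genes were measured and 5 lay above the filter. Of these 0 passed in limma, with 2 at an unadjusted p under 0.05, and the median difference was 0.41 beside 0.03 over all tested genes. PBX3, a partner that HOX proteins bind DNA with, read 8.41 to 8.57 in the tumorigenic lines and at most 8.11 in the others, without overlap (difference 0.42, limma adjusted p = 0.0964). TGIF2, a repressor of the same class, differed by 0.49 (limma adjusted p = 0.142). MEIS2 was bright in every line, between 7.94 and 10.22, and highest in UWKOS2 and UWKOS7, while MEIS1 was dim in all of them, from 5.21 upwards but below the filter; these 2 were chosen after their values were seen.

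Other factors that mark position gave no call either. Of 33 listed limb and axial factors 29 were measured, 11 lay above the filter and 0 passed in limma, 0 also at an unadjusted p under 0.05, with a median of 0.01. SHOX2, which builds the upper limb bones, read 5.61, 6.29 and 6.98 in UWKOS1, UWKOS3 and UWKOS7 and 8.48, 7.09 and 6.97 in UWKOS2, UWKOS6 and UWKOS8 (difference -1.22, limma adjusted p = 0.159). ALX1, a factor of the facial skeleton, lay between 7.94 and 8.98 in the tumorigenic lines and at 8.51 in UWKOS2 but at 4.95 and 5.01 in UWKOS6 and UWKOS8. That is the reverse of HOXD10 on its brightest probe set, which was highest in those 2 lines. On its other probe set UWKOS3, at 6.60, lay close to UWKOS6, at 6.82. The actin and GAPDH end ratios were also highest in UWKOS6 and UWKOS8, and their part in the ALX1 values was not tested. The difference of ALX1 was 2.29 (95% interval -0.03 to 4.62, limma adjusted p = 0.161).

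The fore- and hind-limb factors did not settle a limb type. PITX1, which marks the hind limb, was highest in UWKOS1 at 8.33, followed by UWKOS7 at 6.91 and UWKOS6 at 6.34, with the rest between 5.43 and 5.83. The hind-limb factor TBX4 (4.86 to 5.12) and the fore-limb factor TBX5 (4.59 to 5.20) were dim in all 6 lines. These 3 were chosen after their values were seen. Of 14 listed upstream and HOX-linked factors 11 were measured and 3 tested, and 0 passed in limma, 0 also at an unadjusted p under 0.05. GDF11, a growth factor that sets the trunk-to-tail boundary in mice, differed by -0.37 and EVX2 by -0.05.

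Among the regulators of HOX chromatin the calls were few. The list of trithorax and menin genes also held the boundary factor CTCF. Of its 12 tested genes 2 rose and 0 fell, where 7.5% of all tested genes rose and 4.63% fell. The median difference was 0.12. PSIP1, which tethers the KMT2A and menin complex to chromatin, read 11.13, 11.49 and 11.30 in UWKOS1, UWKOS3 and UWKOS7 against 10.22, 10.16 and 10.51 in UWKOS2, UWKOS6 and UWKOS8, a rise of 1.01 (SE 0.18, limma adjusted p = 0.0239). CTCF, which bounds active domains within the HOX clusters, rose by 0.72 (SE 0.17, limma adjusted p = 0.0467). KMT2A itself differed by 0.22 (limma adjusted p = 0.477) and MEN1 by -0.24 (limma adjusted p = 0.363); both were chosen after their values were seen.

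Of 18 tested Polycomb genes 1 rose and 0 fell, a share below the 12.1% called over all tested genes, and the median difference was -0.09. The gene that rose was SUZ12, a core subunit of Polycomb repressive complex 2, at 8.19, 8.25 and 8.04 in UWKOS1, UWKOS3 and UWKOS7 against 6.91, 6.33 and 7.16 in UWKOS2, UWKOS6 and UWKOS8 (difference 1.35, limma adjusted p = 0.024). EZH2, the enzyme of that complex, did not pass, with a difference of 0.33 (limma adjusted p = 0.569). EED, the third core subunit, read 4.06 in UWKOS1 but 9.56 to 10.48 in the other 5 lines, a difference of -2.34 that rested on UWKOS1 (limma adjusted p = 0.339). EZH2 and EED were chosen after their values were seen.

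Retinoic acid switches on low-numbered HOX genes in embryos and cultured cells, through the receptors RARA, RARB and RARG. Of 8 tested genes of this input 1 fell and 0 rose, where 4.63% of all tested genes fell and 7.5% rose, and the median difference was -0.53. RARA fell by 0.79 on the log2 scale (SE 0.18, limma adjusted p = 0.0432), from 8.51, 8.69 and 8.92 in UWKOS2, UWKOS6 and UWKOS8 to 7.70, 7.96 and 8.08 in UWKOS1, UWKOS3 and UWKOS7. Another 3 tested genes had lower, non-overlapping groups without passing, as 16.6% of all tested genes had lower groups without overlap: the retinal-reducing enzyme DHRS3 (-1.38), the retinol dehydrogenase RDH10 (-1.53) and RARG (-0.64), with limma adjusted p between 0.0774 and 0.0941. The retinoid-induced genes RARB and CYP26A1 had means over the 6 lines below the filter and were not tested with it. They read 7.59 and 7.82 in UWKOS8 and 6.43 and 6.12 in UWKOS6, all above the filter. In the other 4 lines they were at or under 5.63. These 5 were chosen after their values were seen.

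Of 9 tested genes listed as targets of HOX proteins in other systems 1 rose and 1 fell, where 7.5% of all tested genes rose and 4.63% fell, and the median difference was -0.32. BMP7, a bone morphogenetic protein and a HOXA13 target in the mouse limb, rose by 2.97 (SE 0.53, limma adjusted p = 0.0247), while HOXA13 itself was dim and even in all lines. FGF2, which HOXB7 activates in human melanoma cells, fell by 2.49 (SE 0.56, limma adjusted p = 0.0408), while HOXB7 was higher. It read 7.49, 6.51 and 5.10 in UWKOS1, UWKOS3 and UWKOS7, and 8.76 to 8.97 in the other lines. Links of BMP7 and FGF2 to any HOX gene were not tested, and HOXA13 lay below the filter. The growth inhibitor CDKN1A, which HOXA10 activates in human cells, did not follow the labels. It lay at 12.36, 13.29 and 13.12 in UWKOS1, UWKOS6 and UWKOS8 and between 8.28 and 9.06 in UWKOS2, UWKOS3 and UWKOS7; it was chosen after its values were seen. The 6 calls over these pathway lists became 0 without UWKOS3, without UWKOS6, and without both UWKOS6 and UWKOS8; they were 2 without UWKOS2 or without UWKOS8, 3 without UWKOS1 and 12 without UWKOS7.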

How the data were processed

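RNA from 6 canine osteosarcoma lines was hybridised to Affymetrix arrays from 10 µg of total RNA, per the labels' protocols. The deposited values are on a log2 scale, judged from their range. The submitters' processing notes name MAS5 and no other tool, so the summary method is not settled here. They were used without further normalization. The table held 43035 rows, 111 of them controls. Of the other 42924 probe sets 29254 had 1 gene symbol in the platform annotation, 439 had several, and the remaining 13231 had none here. For 27680 the symbol was brought up to date through gene identifiers to RefSeq assembly UU_Cfam_GSD_1.0, used only for names and neighbours.

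Probe sets with a mean at or above the median of 6.07 were kept, and the brightest stood for each of 9145 genes. Groups were compared with limma 3.58.1 (lmFit, eBayes, no covariate) in R 4.3.3, two-sided, with Benjamini-Hochberg adjustment over all genes and a threshold of 0.05. HOX genes below the filter took values from the same fit over all 15115 genes. The fit was also run on simulated data for 9145 genes. It recovered 44% of 50 added log2 differences of 1 and 82% of 50 of 2, with 15 false calls. The number of arrays limits the precision.

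The HOX genes, the lists and the rules were chosen with earlier results of these data known. Full values were given for HOX genes that passed, did not overlap between groups or spanned at least 3; from each list, for all that passed, up to 6, and otherwise the 2 of smallest p among those tested. The alternatives were other filters, normalizations and variance models, the mean of probe sets, the GAPDH end ratio as a covariate and leaving out lines. Using the HOXC8 and HOXD10 probe sets with current gene identifiers was added after the data were seen. Replicate numbers follow accession order. No sequence was used. Figures were drawn with matplotlib 3.10.9.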

Additional observations from a re-analysis of the deposited data

How the results depend on the processing

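HOXB7 kept its positive difference in all 15 alternatives in which it was tested, from 1.27 with the mean of its probe sets to 2.13 (limma adjusted p from 0.0116 to 0.292); it lost its call with the GAPDH ratio, without UWKOS6, and without UWKOS6 and UWKOS8. HOXA3, HOXA5, HOXA7, HOXA9 and HOXC4 stayed negative and HOXB9 positive without passing, in every alternative run; HOXC8 stayed negative and passed without UWKOS2 alone. HOXD10 turned to 0.78 with the GAPDH end ratio as a covariate and to 2.06 without UWKOS6 and UWKOS8. With the probe sets of current identifier, chosen after the data were seen, HOXC8 differed by -0.18 and HOXD10 by -0.71. HOX calls numbered 1, and 0 with the upper-quartile filter, which left HOXA5 as the sole HOX gene tested, with the GAPDH ratio and without UWKOS6 and UWKOS8; leaving out single lines gave 0 to 2. Pathway-list calls numbered 6, and 6 also with the mean of probe sets. They numbered 3 with the upper-quartile filter and 0 with the GAPDH ratio. Without a filter and with the other normalizations and variance models they ranged from 4 to 9. Leaving out single lines gave 0 to 12. Over all genes 1109 passed, 9 with the GAPDH ratio and 1 without UWKOS6 and UWKOS8, where UWKOS2 was alone and assumed to vary like the tumorigenic lines; leaving out single lines gave 12 to 1313. The cause of these shifts was not tested. Centring on the hybridization controls raised the median of all tested genes from 0.03 to 0.20, with 1146 higher and 304 lower calls against 686 and 423; centring on the 75th percentile gave 550 and 474 and quantile normalization 609 and 457. HOXB7 passed under each of these. No paired analysis was possible because the labels give no replicate numbers and the lines are unrelated cultures. The planned pseudocount alternative was not run, since the deposited values are already log2.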
